A study of Homo sapiens with 8 samples.

Results

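The genes described here are 31 transcriptional targets and feedback regulators of p53, taken as a list of symbols and matched to 31 of the 64253 gene identifiers in the count tables. Raw RNA-seq counts per gene were available for 8 libraries of human colon cancer cells in 4 groups of 2 replicates. HCT-8 is the line that is sensitive to 5-fluorouracil (5-FU), a drug that blocks thymidylate synthesis and enters RNA and DNA, and HCT-8/FU is its resistant counterpart. Both were grown in unconditioned medium. The other 2 groups are HCT-8 cells kept in conditioned medium (CM) that had spent 48 hours on HCT-8 cells (CM of HCT-8, here the parental CM) or on HCT-8/FU cells (CM of HCT-8/FU, here the resistant CM). HCT-8/FU is a single resistant line, and neither the labels nor the methods say whether it carried 5-FU when RNA was taken. The comparison of resistant CM against parental CM asks what the resistant cells' medium did beyond used medium as such, and parental CM against HCT-8 gives the background of used medium.

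p53 is a transcription factor that is held low by MDM2 and MDM4 and accumulates when DNA, nucleotide pools or ribosome assembly are disturbed. It then switches on genes for cell cycle arrest, DNA repair, death receptors, redox control and its own shutdown, among them p21, the product of CDKN1A. Many of these genes also answer to other stress pathways, so their levels do not read p53 alone. 5-FU is known to activate p53 both through damaged DNA and through disturbed ribosomal RNA.

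p53 binds 2 adjoining copies of a short motif, each built around a core of CATG or a close variant of it. The p53 response element was searched on both strands as 2 adjoining copies of 10 bases, with both cores kept and at most 2 mismatches elsewhere. The search covered 3000 bases on each side of each gene's annotated start (GENCODE 44, GRCh38). That start is the outermost one over all transcripts of the gene, so the starts of other transcripts may lie outside the window. Such a match lay near 12 of the 31 genes (38.7%) and in 554 of 19550 windows of all protein-coding genes (2.83%). The 4 below are shown because CDKN1A, GADD45A and ZMAT3 carry the differences described further on, and because ZMAT3 and PLK2 matched without a mismatch. Capitals mark the core of each copy, and each sequence is written along the strand of its gene.
CDKN1A: gaaCATGtcccaaCATGttg
GADD45A: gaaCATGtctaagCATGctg
ZMAT3: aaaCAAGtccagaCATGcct
PLK2: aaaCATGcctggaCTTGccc
The CDKN1A match, at chr6:36676449-36676468 on the plus strand, spans the outermost annotated start of the gene and reaches into untranslated exonic bases there. Its distance from the starts of other CDKN1A transcripts was not examined. The GADD45A match lies in an intron, at chr1:67686775-67686794 on the plus strand, 1584 bases after the start. The ZMAT3 match is also intronic, at chr3:179070188-179070207 on the minus strand, 2018 bases after the start. The PLK2 match lies outside the gene, at chr5:58462274-58462293 on the minus strand, 2144 bases before the start. No match was found in these windows for GDF15, MDM2 or FAS. Elements with another core, or near other transcript starts outside the windows, were not searched, so these genes may still have an element. A match is a description of the letters and not a site shown to be bound, and the genes with and without one moved in both directions in the comparisons that follow.

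Levels are given as CPM, a gene's count scaled to the size of its library with TMM. A gene was called different (a DE gene) when edgeR's quasi-likelihood test gave a Benjamini-Hochberg adjusted p of at most 0.05 over the 20305 genes tested, with a log2 fold change at or beyond 0.58 in size. All adjusted p below are from that test. Of the 31 genes, 30 passed the filter on low counts. EDA2R, an ectodysplasin receptor induced by p53, had 0 of 172931067 counts, where 3 counts would be 0.0887 to 0.501 CPM in a single library. The labels do not say whether the 2 replicates of a group came from separate cultures, so p-values measure only the spread between these libraries. In bulk RNA, fewer cells that express a gene and less RNA per cell cannot be told apart. Groups of 2 libraries often do not overlap. Of all tested genes, 32.7% were higher and 32.3% lower without overlap in HCT-8/FU against HCT-8. The shares were 26.9% and 34.5% in resistant CM against parental CM, and 27.2% and 27.1% in parental CM against HCT-8. Libraries that do not overlap are therefore no mark of a difference by themselves.

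Counts on genes ran from 5804124 to 34881349 per library, and 3 libraries, HCT-8 replicate 1, HCT-8/FU replicate 2 and parental CM replicate 1, had more than 15% of their records not aligned, against 3.58% to 4.43% in the other 5. Gene base composition moved with the groups: across 19857 genes, Spearman's correlation of log2 fold change with GC content was -0.397 for HCT-8/FU against HCT-8, -0.398 for resistant CM against parental CM and 0.301 for parental CM against HCT-8. Each result that moves under it is therefore also given with a correction, in which every library's trend with GC content and exonic length was taken out. Real differences that run along GC content are taken out with it. All 10 colon epithelial markers examined had counts, with KRT8 at 4720 to 5869 CPM, while PTPRC (leukocytes) and COL1A2 (fibroblasts) were at 0 in all 8 libraries and COL1A1 at 8.19 to 13.8 CPM. Of the 6 markers of other cells examined, 3 passed the filter on low counts: COL1A1, PECAM1 and VWF (the last 2 of endothelium). None of these was called in any comparison of 2 groups by edgeR or DESeq2. Of the 10 colon markers, 3 were called higher in HCT-8/FU against HCT-8 (edgeR, thresholds given above), among them KRT20 at 1.45 and VIL1 at 0.96, and 3 in parental CM against HCT-8, with VIL1 at 0.80. Each count is 30% of the list, against 13.2% and 3.86% of all tested genes called higher. In HCT-8/FU 4 of the 10 had a negative value, with 0 called lower and 3 lower at an unadjusted p under 0.05 in edgeR's test. With the correction 3 and 1 were called higher (30% and 10%, against 7.28% and 2.76% of all genes). Between the media edgeR and DESeq2 called 0, and 6 were lower at an unadjusted p under 0.05 in edgeR's test. The part of these differences in the p53 target results was not tested.

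In HCT-8/FU against HCT-8 the p53 targets split in both directions. GDF15, TNFRSF10B, GADD45A and CDKN1A were lower, by 1.65-fold to 3.63-fold, and RRM2B, ZMAT3, MDM2 and FAS were higher, by 1.63-fold to 2.38-fold. The 4 higher genes made up 13.3% of the 30 tested, against 13.2% of all tested genes called higher, and the 4 lower genes also 13.3%, against 8.12% of all tested genes called lower. The share of higher calls was thus near that of all genes. The median log2 fold change over the 30 genes was -0.02, against 0.0082 over all genes tested.

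In resistant CM against parental CM, only RRM2B, ZMAT3 and FAS were called, all higher, by 1.77-fold to 2.06-fold. That is 10% of the 30 genes, against 7.97% of all tested genes. None was called lower, against 1.28% of all tested genes. At an unadjusted p under 0.05 in edgeR's test 8 genes were lower, 4 of them past the adjusted p, and DESeq2 also called 0 lower. The share of all tested genes lower at these cutoffs was not computed. The median log2 fold change was -0.12 over the 30 genes and -0.059 over all genes tested. The 3 called genes are the ones that the correction for GC content and length removed from the calls in this comparison.

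In parental CM against HCT-8, the 4 called genes were all lower: GDF15, TNFRSF10B, GADD45A and TIGAR, by 1.55-fold to 1.87-fold. They made up 13.3% of the 30 genes, against 4.29% of all tested genes called lower. None was called higher by edgeR or by DESeq2, against 3.86% of all tested genes, although 6 were higher at an unadjusted p under 0.05 in edgeR's test and 3 of these passed the adjusted p. How many of all genes were higher at these cutoffs was not computed. This comparison shares its HCT-8 libraries with HCT-8/FU against HCT-8 and its parental CM libraries with the comparison of the media, so the same gene's values in them are not independent.

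**Figure D1:**
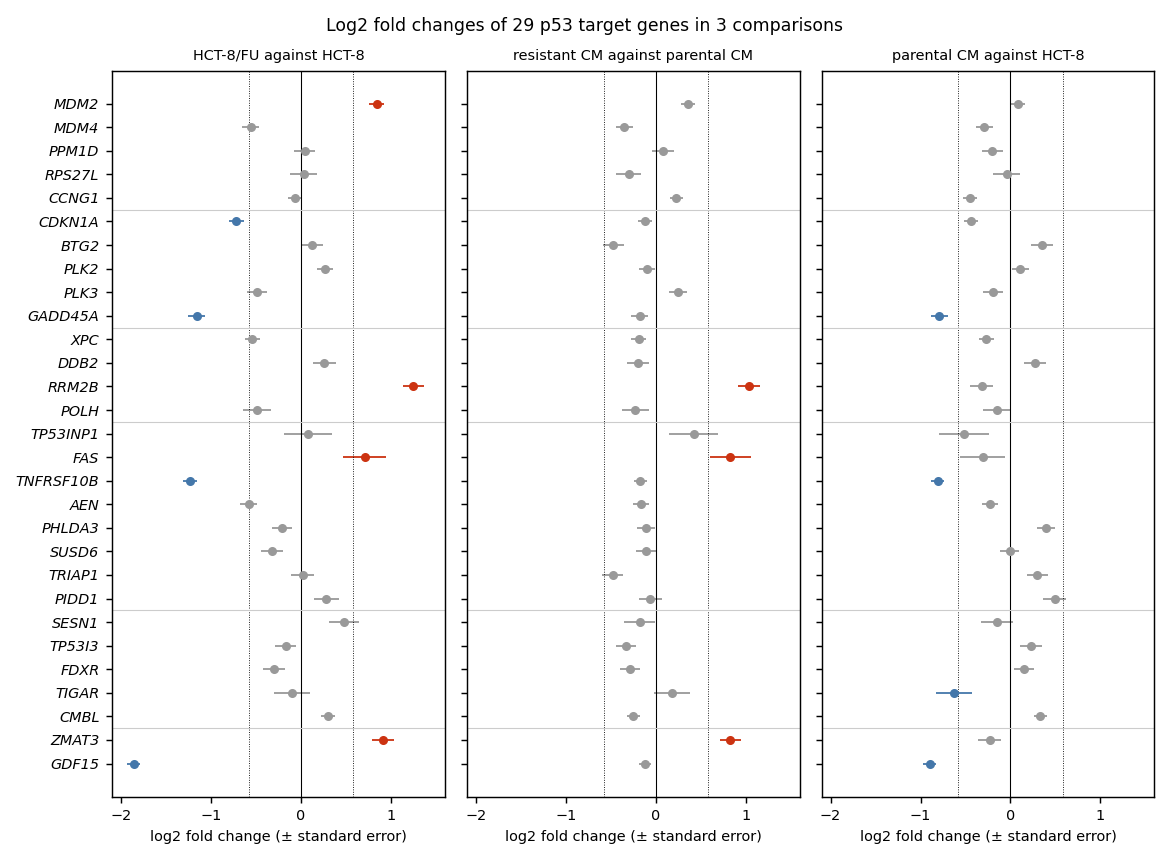
Log2 fold changes of 29 p53 target genes, one row a gene and one panel a comparison, with standard errors as bars, called genes in red (higher) or blue (lower), dotted lines at 0.58 and -0.58, and grey lines between the groups of roles. GDF15 is lowest at -1.86 in HCT-8/FU against HCT-8 and RRM2B highest at 1.25, while in resistant CM against parental CM no gene of the 29 is below -0.48. SPATA18, with at most 0.399 CPM, and EDA2R are not drawn.

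The genes that shut p53 down showed no shared direction. MDM2, the ubiquitin ligase that marks p53 for destruction and is itself induced by it, had 58.6 and 57.5 CPM in HCT-8, against 102 and 105 in HCT-8/FU, 63.1 and 60.1 in parental CM, and 82.3 and 75.6 in resistant CM. Both HCT-8/FU libraries lay above all others, and both resistant CM libraries above the remaining 4. The log2 fold change was 0.84 ± 0.085 (standard error) in HCT-8/FU (adjusted p = 2e-06), and 0.36 ± 0.082 for the media (adjusted p = 0.0056), below the fold threshold. With the correction for GC content and length, MDM2 was at 0.32 in HCT-8/FU (adjusted p = 0.018), no longer a call, and the value for the media changed sign to -0.13 (adjusted p = 0.43). MDM2 has 39.5% GC in its exons, and the part of GC content in these differences was not tested.

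MDM4, the partner of MDM2 that blocks the activating part of p53, had values of the opposite sign. Its levels were 128 and 105 CPM in HCT-8, against 79.8 and 76.7 in HCT-8/FU, 89.3 and 98.2 in parental CM, and 74.0 and 73.9 in resistant CM. The HCT-8/FU and resistant CM libraries lay below all HCT-8 and parental CM libraries. The log2 fold changes of -0.56 ± 0.097 and -0.35 ± 0.094 missed the fold threshold (adjusted p = 0.00033 and 0.017), and with the correction they were -0.95 and -0.72, both past it (adjusted p = 2.1e-05 and 0.00097). MDM2 and MDM4 had opposite signs in HCT-8/FU without the correction and with it, while between the media both were negative with it. MDM4 has 42% GC in its exons, and the part of GC content in its differences was not tested.

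The other genes that act against p53 or are induced to limit it are PPM1D, a phosphatase that reverses damage signalling, CCNG1 (cyclin G1), and RPS27L, a ribosomal protein that binds MDM2. None was called in any comparison. PPM1D stayed between 19.7 and 26.6 CPM in all 8 libraries, with log2 fold changes from -0.20 to 0.08. CCNG1 was at 197 and 187 CPM in HCT-8, against 186 and 177 in HCT-8/FU, 144 and 136 in parental CM, and 158 and 170 in resistant CM. Its difference of -0.45 ± 0.076 in parental CM against HCT-8 passed the adjusted p (0.00074) and not the fold. With the correction CCNG1 was called lower in HCT-8/FU (-0.65, adjusted p = 8.4e-05) and RPS27L lower in resistant CM against parental CM (-0.70, adjusted p = 0.0091).

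Of the 5 genes for cell cycle arrest, 2 were called in HCT-8/FU against HCT-8, and both were lower. CDKN1A encodes p21, the inhibitor of cyclin-dependent kinases through which p53 stops the cycle. It had 225 and 241 CPM in HCT-8, against 132 and 152 in HCT-8/FU, 168 and 175 in parental CM, and 154 and 161 in resistant CM. Both HCT-8 libraries were above all other libraries, and both HCT-8/FU libraries were below all of them. The log2 fold change in HCT-8/FU was -0.72 ± 0.082 (adjusted p = 6.4e-06), in parental CM against HCT-8 -0.44 ± 0.081 (adjusted p = 0.0014, below the fold threshold), and between the media -0.12 ± 0.08 (adjusted p = 0.32). The correction moved the first to -0.49 (adjusted p = 0.0032), below the fold threshold, and the second to -0.61 (adjusted p = 0.0021), past it. In both fits the sign was the same in these 2 comparisons, and between the media it was 0.04 with the correction.

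GADD45A, a damage-induced protein that binds p21 and the mitotic kinase CDK1, had 85.8 and 86.0 CPM in HCT-8, against 39.3 and 36.9 in HCT-8/FU, 52.5 and 47.8 in parental CM, and 42.6 and 45.6 in resistant CM. The HCT-8 libraries stood above the other 6, which lay between 36.9 and 52.5 CPM. It fell by 1.16 on the log2 scale in HCT-8/FU (standard error 0.094, adjusted p = 2.5e-07) and by 0.79 in parental CM against HCT-8 (standard error 0.091, adjusted p = 4.3e-05). Between the media the value was -0.18 ± 0.09 (adjusted p = 0.19). With the correction GADD45A was called lower in the same 2 comparisons, at -0.97 and -0.95.

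The other 3 arrest genes, BTG2, an antiproliferative cofactor of RNA decay, and the polo-like kinases PLK2 and PLK3, were not called in the comparisons of 2 groups. PLK3 was at 28.96 and 29.7 CPM in HCT-8, against 20.9 and 21.1 in HCT-8/FU, 24.4 and 26.6 in parental CM, and 30.9 and 30.2 in resistant CM. Its difference of -0.49 ± 0.11 in HCT-8/FU passed the adjusted p (0.0025) and not the fold. BTG2 was highest in parental CM, at 45.9 and 36.5 CPM, and between 27.8 and 35.2 in the other 6 libraries. PLK2 lay between 86.5 and 115 CPM.

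RRM2B led the higher genes. It encodes the p53-induced small subunit of ribonucleotide reductase, which makes deoxynucleotides outside S phase. It had 23.2 and 22.3 CPM in HCT-8, against 51.7 and 57.2 in HCT-8/FU, 21.3 and 16.1 in parental CM, and 36.8 and 37.7 in resistant CM. The 4 libraries of HCT-8/FU and resistant CM were all above the 4 of HCT-8 and parental CM. The log2 fold change was 1.25 ± 0.12 in HCT-8/FU (adjusted p = 1.6e-06) and 1.04 ± 0.12 between the media (adjusted p = 2.5e-05). RRM2B has 37.5% GC in its exons. With the correction it remained called in HCT-8/FU (0.68, adjusted p = 0.0011), and it was below the fold threshold between the media (0.50, adjusted p = 0.023).

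The other repair genes differed less. XPC, the damage sensor of global nucleotide excision repair, had 89.1 and 96.8 CPM in HCT-8, against 65.5 and 62.9 in HCT-8/FU, 80.5 and 75.1 in parental CM, and 66.4 and 69.8 in resistant CM. Both HCT-8/FU libraries were below all others, and the log2 fold change of -0.54 ± 0.086 passed the adjusted p (0.00016) and not the fold. Without HCT-8 replicate 1 it was -0.60 (adjusted p = 0.00064), past both thresholds. Antisense genes cover 24.6% of the exonic bases of XPC, and since no strand setting of the counting is given in the sources used here, their reads may be in its counts.

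DDB2, the partner of XPC that finds ultraviolet lesions, had 22.1 and 27.0 CPM in HCT-8, against 29.5 and 31.1 in HCT-8/FU, 27.3 and 32.5 in parental CM, and 26.6 and 26.0 in resistant CM. All 8 libraries lay within a narrow range, and the largest of its differences in the 3 comparisons was 0.27 ± 0.12 in parental CM against HCT-8 (adjusted p = 0.15). POLH, the polymerase that copies past lesions, was at -0.49 ± 0.16 in HCT-8/FU (adjusted p = 0.023) and was not called. XPC and DDB2 are both textbook p53 targets in the same repair pathway. In HCT-8/FU XPC was at -0.54 and DDB2 at 0.26 ± 0.13 (adjusted p = 0.12), and neither was called.

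**Figure D2:**
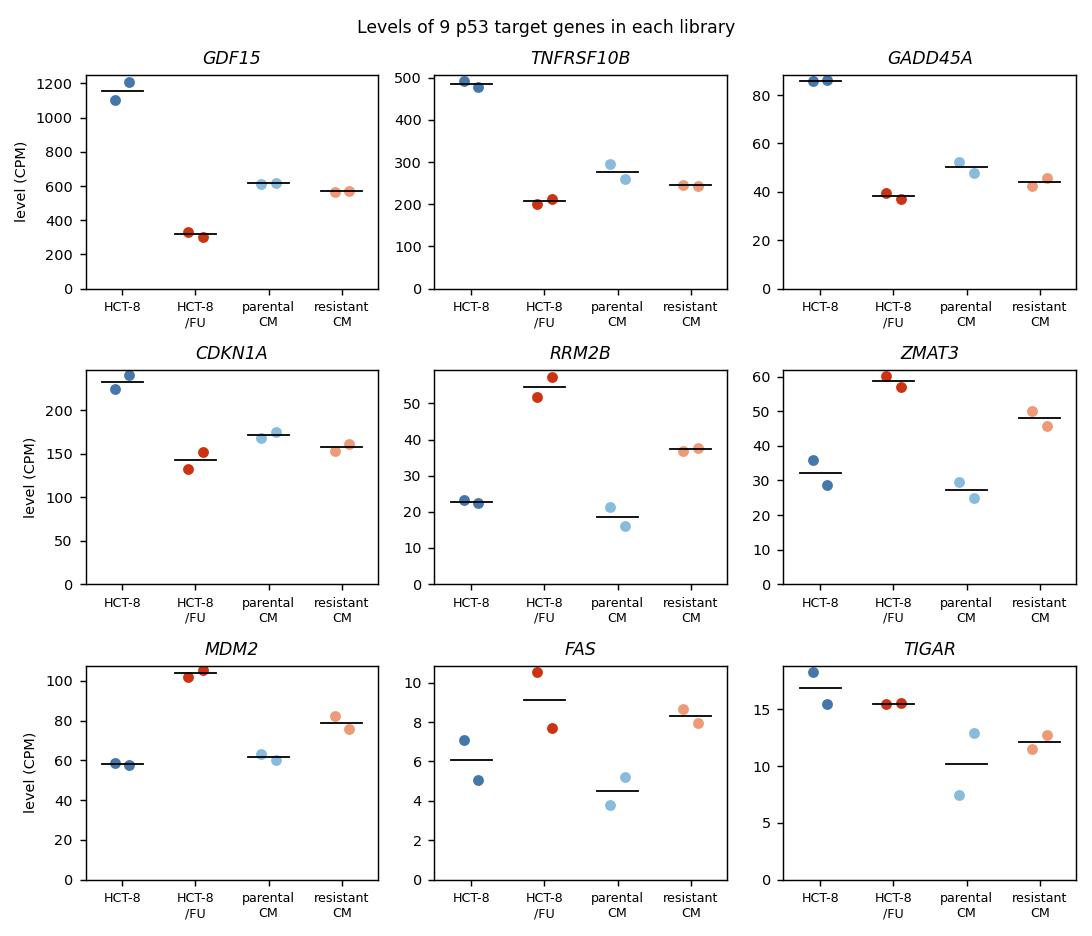
CPM of 9 p53 target genes in each of the 8 libraries, with points for the 2 replicates of a group and a line at their mean, each panel starting at 0. GDF15, TNFRSF10B, GADD45A and CDKN1A are highest in both HCT-8 libraries, RRM2B and ZMAT3 are higher in HCT-8/FU and resistant CM than in the other 2 groups, and the replicates of FAS and TIGAR lie farthest apart relative to their level.

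TNFRSF10B and FAS, both death receptors, were called in opposite directions in HCT-8/FU. TNFRSF10B encodes DR5, the receptor for the death ligand TRAIL, and is induced by p53 and also by stress of the endoplasmic reticulum. It had 493 and 477 CPM in HCT-8, against 200 and 213 in HCT-8/FU, 295 and 259 in parental CM, and 246 and 244 in resistant CM. HCT-8 stood above the other 3 groups and HCT-8/FU below them, with no overlap between any groups. It fell by 1.23 on the log2 scale in HCT-8/FU (standard error 0.077, adjusted p = 3e-08) and by 0.81 in parental CM against HCT-8 (standard error 0.076, adjusted p = 6.8e-06), and was at -0.17 ± 0.076 between the media (adjusted p = 0.13). The correction left -1.12 and -0.88 in the first 2 comparisons, both called.

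FAS, the receptor for Fas ligand and a long-known p53 target, was a low gene. It had 7.11 and 5.06 CPM in HCT-8, against 10.5 and 7.69 in HCT-8/FU, 3.80 and 5.24 in parental CM, and 8.66 and 7.98 in resistant CM. HCT-8/FU did not overlap HCT-8, though its lower library was close to the higher one of HCT-8, and the 2 conditioned media did not overlap. Parental CM overlapped HCT-8. The log2 fold change was 0.71 ± 0.24 in HCT-8/FU (adjusted p = 0.03) and 0.83 ± 0.23 between the media (adjusted p = 0.02). These calls rest on few libraries. In HCT-8/FU the call was lost without HCT-8 replicate 2 (0.39, adjusted p = 0.38), without HCT-8/FU replicate 1 (0.40, adjusted p = 0.41), and without resistant CM replicate 1 or 2 (0.67 each, adjusted p = 0.064 and 0.062), which enter through the shared spread. Between the media it was lost without parental CM replicate 1 (0.67, adjusted p = 0.057) and without resistant CM replicate 1 (0.78, adjusted p = 0.14) or replicate 2 (0.90, adjusted p = 0.075). With the correction FAS was at 0.23 and 0.29 (adjusted p = 0.54 and 0.51).

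None of the other apoptosis genes was called with all 8 libraries and the settings used throughout. AEN, a nuclease that cuts DNA in dying cells, had 67.1 and 71.6 CPM in HCT-8 and 44.9 and 49.3 in HCT-8/FU, with no overlap, and its log2 fold change of -0.58 ± 0.095 (adjusted p = 0.00019) was just short of the fold threshold. It was called lower under 9 other settings, at -0.68 to -0.58, among them no filter on low counts, a term for the 3 libraries with many records not aligned, their removal, and leaving out any 1 library other than replicate 2 of HCT-8 or replicate 1 of HCT-8/FU. With the correction AEN was at -0.45. TRIAP1, which keeps mitochondria from releasing cytochrome c, was at -0.48 ± 0.12 between the media (adjusted p = 0.0089). PIDD1, the scaffold of the PIDDosome that activates caspase-2, and PHLDA3, an inhibitor of the kinase AKT, were at 0.49 ± 0.13 and 0.39 ± 0.1 in parental CM against HCT-8 (adjusted p = 0.019 and 0.015). For PHLDA3 another gene on the same strand overlaps 18.4% of the exonic bases. SUSD6 was at -0.32 ± 0.12 in HCT-8/FU (adjusted p = 0.043), and TP53INP1, a cofactor of p53 in apoptosis and autophagy, lay between 3.80 and 7.11 CPM with no adjusted p under 0.23. SPATA18, a mitochondrial quality control protein, had at most 0.399 CPM, and its 0 to 12 counts in a library were too few for a fold change to be read.

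The 5 metabolic and redox targets had log2 fold changes within -0.63 to 0.48 in the 3 comparisons. TIGAR, which lowers glycolysis by removing fructose-2,6-bisphosphate, was the only one called, and in parental CM against HCT-8 only. It had 18.3 and 15.5 CPM in HCT-8, against 15.4 and 15.5 in HCT-8/FU, 7.48 and 12.9 in parental CM, and 11.5 and 12.8 in resistant CM. The low value was in parental CM replicate 1, one of the 3 libraries with many records not aligned, and without it the log2 fold change of -0.63 ± 0.2 (adjusted p = 0.04) became -0.36 (adjusted p = 0.16). The call was also lost without HCT-8 replicate 1 (-0.53, adjusted p = 0.18), without HCT-8 replicate 2 (-0.84, adjusted p = 0.057), without HCT-8/FU replicate 1 or 2 (-0.63 each, adjusted p = 0.062 and 0.058), with only the groups compared in the fit (-0.65, adjusted p = 0.093), and with the correction (-0.50, adjusted p = 0.14). SESN1, a sestrin that restrains mTORC1, was at 0.48 ± 0.17 in HCT-8/FU (adjusted p = 0.044). CMBL, a hydrolase, passed the adjusted p in all 3 comparisons with differences of only 0.30, -0.25 and 0.33. TP53I3, a quinone oxidoreductase, and FDXR, the reductase that feeds mitochondrial P450 enzymes, stayed within -0.33 to 0.23.

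GDF15 and ZMAT3 complete the list. GDF15 is a secreted stress hormone of the TGF-beta family, induced by p53 and by the integrated stress response. Per kilobase of exon it had the highest mean level of the 31 genes, at 318 CPM per kb, followed by TNFRSF10B at 60.6, CDKN1A at 58.7 and CCNG1 at 54.7, while FAS was at 0.239. The exons of FAS, joined over all its annotated transcripts, span 29313 bases, which lowers its level per kilobase. GDF15 had 1102 and 1207 CPM in HCT-8, against 333 and 301 in HCT-8/FU, 615 and 621 in parental CM, and 564 and 573 in resistant CM. The 4 groups did not overlap, HCT-8 being highest and HCT-8/FU lowest. It fell by 1.86 on the log2 scale in HCT-8/FU (standard error 0.074, adjusted p = 6.8e-10) and by 0.90 in parental CM against HCT-8 (standard error 0.072, adjusted p = 1.7e-06), and was at -0.12 ± 0.071 between the media (adjusted p = 0.28). With the correction the first 2 values were -1.64 and -1.09, both called.

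ZMAT3, a zinc finger protein that binds RNA and steers splicing and RNA stability, had 35.8 and 28.6 CPM in HCT-8, against 60.2 and 57.2 in HCT-8/FU, 29.7 and 24.9 in parental CM, and 50.2 and 45.7 in resistant CM. As for RRM2B, all 4 libraries of HCT-8/FU and resistant CM were above the other 4. The log2 fold change was 0.91 ± 0.12 in HCT-8/FU (adjusted p = 3e-05) and 0.83 ± 0.12 between the media (adjusted p = 0.00013). ZMAT3 has 40% GC in its exons, and with the correction both values fell below the fold threshold, at 0.37 (adjusted p = 0.033) and 0.32 (adjusted p = 0.12).

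**Figure D3:**
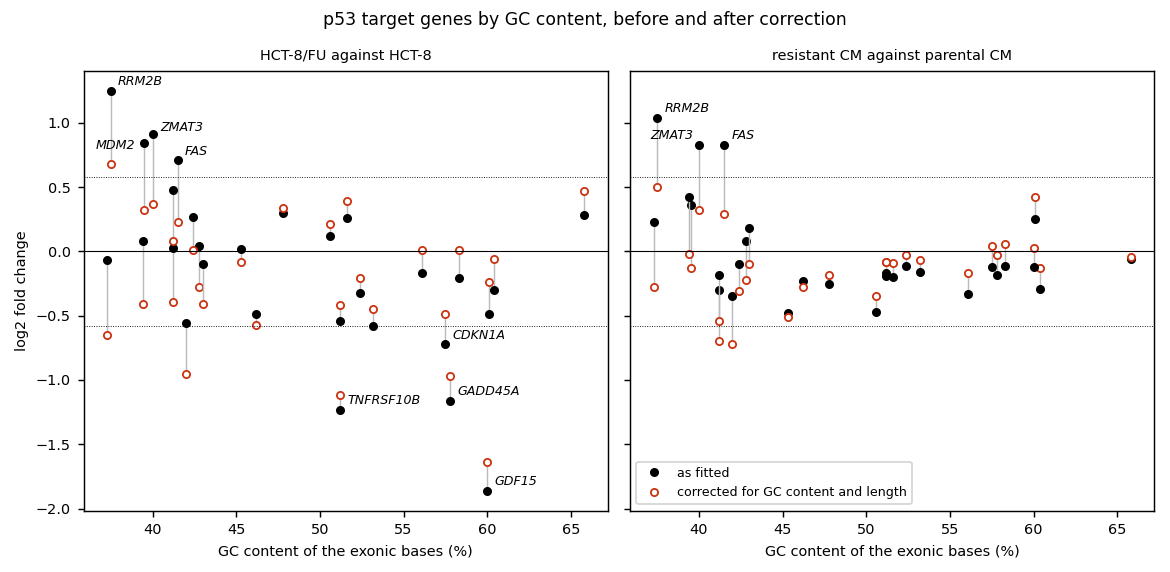
Log2 fold changes of 29 p53 target genes against the GC content of their exonic bases (%), as fitted (black) and corrected for GC content and length (open red), in HCT-8/FU against HCT-8 (left) and resistant CM against parental CM (right), with dotted lines at 0.58 and -0.58 and the names of genes called as fitted. The 4 genes called higher on the left have 37.5% to 41.5% GC and the 4 called lower 51.2% to 60%, and on the right all 3 called genes come to lie under 0.58.

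Over the 30 genes tested, Spearman's correlation of the log2 fold change with GC content was -0.564 in HCT-8/FU against HCT-8, -0.328 between the media and 0.244 in parental CM against HCT-8, as a description of genes that share the same 8 libraries. With the correction, 6 genes were called in HCT-8/FU against HCT-8 in place of 8, of which 4 were in both sets: RRM2B higher, and GDF15, TNFRSF10B and GADD45A lower. CCNG1 and MDM4, both lower, were added. The 1 higher and 5 lower calls are 3.33% and 16.7% of the 30 genes, against 7.28% and 8.06% of the 19857 genes in the corrected fit. Between the media the corrected fit called MDM4 and RPS27L, both lower, and none of the 3 genes called without it, and these 2 are 6.67% of the 30, against 2.16% of all genes called lower there. In parental CM against HCT-8 it called 4 genes, all lower, with CDKN1A in place of TIGAR, which is 13.3%, against 2.72% of all genes.

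The test of the difference between the 2 effects, HCT-8/FU against HCT-8 and resistant CM against parental CM, sets the resistant line beside its medium. The 2 baselines differ, HCT-8 in unconditioned medium and HCT-8 in parental CM. The effect of used medium therefore enters this difference wherever it is given. In parental CM against HCT-8, GDF15 was at -0.90, TNFRSF10B at -0.81, GADD45A at -0.79, CDKN1A at -0.44, PLK3 at -0.19 and BTG2 at 0.35. The test of the difference called 5 genes as more negative in the resistant line (16.7% of the 30, against 4.14% of all tested genes) and 1 as more positive (against 3.55%). GDF15 differed by -1.74 ± 0.1 (adjusted p = 1.6e-07), TNFRSF10B by -1.06 ± 0.11 (adjusted p = 1.9e-05) and GADD45A by -0.98 ± 0.13 (adjusted p = 0.00017). These 3 damage and stress genes were called lower in the line, and the calls did not come between the media. PLK3 differed by -0.74 ± 0.15 (adjusted p = 0.0047) and CDKN1A by -0.60 ± 0.11 (adjusted p = 0.0032), and these 2 had smaller effects in the line itself. For CDKN1A the difference was below the fold threshold without HCT-8/FU replicate 1 (-0.50, adjusted p = 0.02), without resistant CM replicate 2 (-0.57, adjusted p = 0.024) and with the correction (-0.54, adjusted p = 0.041). BTG2 differed by 0.59 ± 0.17 (adjusted p = 0.036), and that call was lost when any 1 library other than parental CM replicate 2 was left out, at 0.42 to 0.66. It was also lost with DESeq2 (0.57, adjusted p = 0.051), with DESeq2's size factors in edgeR (0.56, adjusted p = 0.056), with no filter on low counts (0.54), with the term for libraries with many records not aligned (0.56), without those 3 libraries (0.39), with a replicate block (0.57) and with the correction (0.56, adjusted p = 0.082).

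RRM2B, ZMAT3 and FAS gave differences of 0.21 ± 0.17, 0.07 ± 0.17 and -0.12 ± 0.33 between the 2 effects, with adjusted p of 0.52, 0.86 and 0.88. These do not show that the 2 effects are equal. MDM2 differed by 0.48 ± 0.12 (adjusted p = 0.016), below the fold threshold. For GDF15, TNFRSF10B, GADD45A and CDKN1A, the libraries of both conditioned media lay below both HCT-8 libraries in unconditioned medium.

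Other p53-induced genes were called in both directions in HCT-8/FU. Of 30 further targets, 29 were tested, and 5 were called higher and 5 lower in HCT-8/FU against HCT-8, with a median log2 fold change of -0.23. Each count is 17.2% of the list, against 13.2% of all tested genes called higher and 8.12% called lower. SESN2, a sestrin also induced by amino acid stress, was at -1.48 and BTG1, an antiproliferative gene, at -1.31, while PANK1, a pantothenate kinase, was at 1.41 and E2F7, a repressor of the cell cycle, at 1.26. Between the media 1 of the 29 was called (3.45%, against 7.97% of all genes called higher), ASCC3, a helicase of DNA alkylation repair, at 1.05, and it was at 0.37 with the correction (adjusted p = 0.071). In parental CM against HCT-8, 1 was called higher and 2 lower (3.45% and 6.9%, against 3.86% and 4.29% of all genes), with PANK1 at 0.95, SESN2 at -0.74 and BTG1 at -0.74. PANK1 was not called there without parental CM replicate 2 (0.52, adjusted p = 0.21) or without HCT-8 replicate 1 (0.84, adjusted p = 0.051), and BTG1 not without the same libraries (-0.52 and -0.56) or with the correction (-0.58, just short of the fold threshold). With the correction 3 were called higher and 3 lower in HCT-8/FU (10.3% each, against 7.28% and 8.06% of all genes), none between the media, and 2 higher and 1 lower in parental CM against HCT-8 (6.9% and 3.45%, against 2.76% and 2.72%).

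Cell cycle genes that p53 lowers through p21 and the DREAM repressor complex were all on the positive side in 2 comparisons. Of 16, 8 were called higher and 0 lower in HCT-8/FU against HCT-8 (median 0.57), and 7 higher and 0 lower in parental CM against HCT-8 (median 0.53), with all 16 above 0 in both. These counts are 50% and 43.8% of the list, against 13.2% and 3.86% of all tested genes called higher. CDKN1A itself was at -0.72 and -0.44 in these 2 comparisons, which share the HCT-8 libraries. A link between the level of CDKN1A and these cell cycle genes was not tested. CCNA2 (cyclin A2) was at 1.56, CDK1 at 1.51, KIF23, a kinesin of cytokinesis, at 1.39 and BUB1, a spindle checkpoint kinase, at 0.98 in HCT-8/FU, and BUB1 was no longer called with the correction (0.57, adjusted p = 0.0063). In parental CM against HCT-8 the largest were the cell cycle transcription factor E2F1 at 1.11, the mitotic kinase AURKB at 1.08, MYBL2 at 1.06 and BIRC5 (survivin) at 1.00. Between the media 2 were called higher, KIF23 at 0.85 and CDK1 at 0.61 (12.5%, against 7.97% of all genes), and the median was -0.25. CDK1 was at 0.45 there without parental CM replicate 2 (adjusted p = 0.027), and 1 gene was then called higher and 2 lower.

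No cell cycle gene was called lower in any of the 3 comparisons by edgeR or DESeq2, and at an unadjusted p under 0.05 in edgeR's test 0 were lower in HCT-8/FU, 7 between the media and 0 in parental CM against HCT-8. The correction gave 9, 0 and 7 called higher and none lower, which is 56.2%, 0% and 43.8%, against 7.28%, 2.65% and 2.76% of all genes called higher. CDK1 between the media came to -0.03 and KIF23 to 0.44 with it. Without the 3 libraries with many records not aligned, 4 of the 16 were called higher in HCT-8/FU against HCT-8, and AURKB, BIRC5 and MYBL2 were among those lost, at 0.41, 0.57 and 0.55. The difference between the effects of the line and of its medium was called for 12 of the 16 (75%, against 3.55% of all genes), all more positive in the line, and for 7 without HCT-8 replicate 2.

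Regulators of p53 protein were led by the damage kinases. Of 20 listed, 19 were tested, and CDKN2A, which encodes the MDM2 inhibitor ARF, was the one with hardly any counts. In HCT-8/FU against HCT-8, 4 were called higher and 1 lower (21.1% and 5.26%, against 13.2% and 8.12% of all tested genes), with ATR at 1.48, ATM at 1.29, the ubiquitin ligase TRIM24 at 1.06 and CHEK1 at 1.03. Between the media, 3 were called higher and 1 lower (15.8% and 5.26%, against 7.97% and 1.28%), with ATR at 1.47, TRIM24 at 0.73 and ATM 2.30-fold higher. RPL11, a ribosomal protein that binds MDM2, was at -0.63, and without parental CM replicate 1 it was at -0.39 (adjusted p = 0.0025) and without HCT-8 replicate 2 just short of the fold threshold (-0.58, adjusted p = 0.011). GENCODE 44 lists 4 pseudogenes named after RPL11, and reads shared with them were not examined.

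These kinase genes are poor in GC, and with the correction ATR was at 0.71 and 0.61 and ATM at 0.65 and 0.45 in the 2 comparisons, so that ATM was no longer called between the media (adjusted p = 0.0087). TRIM24 (0.45, adjusted p = 0.019) and RPL11 (-0.54, adjusted p = 0.057) also lost their calls between the media with it. The corrected fit called 4 of the 19 higher and 2 lower in HCT-8/FU (21.1% and 10.5%, against 7.28% and 8.06% of all genes), and 1 higher and 1 lower between the media (5.26% each, against 2.65% and 2.16%). In parental CM against HCT-8 the 1 call (5.26%, against 4.29% of all tested genes called lower) was TP53BP2, a cofactor that steers p53 to apoptosis genes, at -0.60, and it was below the fold threshold without parental CM replicate 2 (-0.51) or HCT-8 replicate 1 (-0.55).

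**Figure D4:**
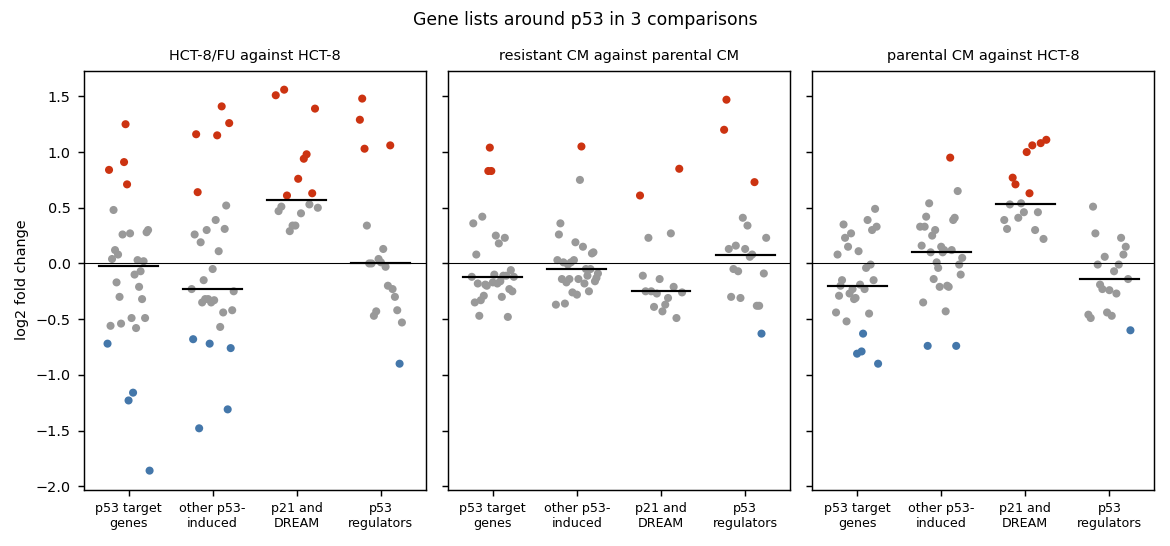
Log2 fold changes of the tested genes of 4 lists around p53 in the 3 comparisons, one point a gene (red called higher, blue called lower, grey not called) with a line at the list's median; SPATA18 is not drawn. All 16 cell cycle genes lie above 0 in HCT-8/FU against HCT-8 and in parental CM against HCT-8, with medians of 0.57 and 0.53, and the p53 targets lie on both sides of 0 in each panel.

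In a fit without the 3 libraries with many records not aligned, TIGAR was at -0.26 in parental CM against HCT-8, below the fold threshold. In that fit 3 groups have 1 library each, which is assumed to vary like the group that kept both. The depth and base composition of a library and the condition it carries cannot be told apart for single calls in groups of 2.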

How the data were processed

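Per the study's methods and notes, read pairs were mapped with HISAT2 (build GRCh38) and assigned to Ensembl genes with HTSeq 0.11.2, and the authors deposited the raw counts of each library. SAMtools 1.18 and DESeq2 1.30.0 are also named in the submitters' notes. Whether counting used strand is not given in the sources read. The deposited DESeq2 tables hold the authors' own fold changes and p-values and were not used. Genes held 29.7% to 40.8% of a library's records, and lines that name no gene were left out.

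Counts were fitted in R 4.3.3 with edgeR 4.0.16 (TMM, filterByExpr, quasi-likelihood test, group means of all 8 libraries, no replicate block). Gene names, positions, exonic length and GC content came from GENCODE 44, which held 56105 of the 64253 identifiers. The correction subtracts, per library, splines with 5 degrees of freedom on GC content and log length. In simulated data for HCT-8/FU against HCT-8, 90% of 200 genes changed by 1.5 on the log2 scale were called, with 11 false calls among 19772 genes tested. The simulation held no trend with GC content or length, and apart from GDF15 the called p53 targets changed by less than 1.5. Its figures therefore need not hold for the calls given here. Replicates differed beyond counting noise (median chi-square 1.03 to 2.15, against 0.455 for noise alone).

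The list of p53 targets and the other lists were chosen with earlier results of these data known. Named in full are the targets called in any comparison of 2 groups, and CDKN1A, MDM2, FAS, TNFRSF10B, DDB2, XPC and GDF15. From each other list up to 4 genes a comparison are named: called genes whose groups do not overlap, by absolute log2 fold change. MDM4, CCNG1, PLK3, BTG2 and the other targets given with values were chosen after their values were seen. Alternatives were DESeq2 1.42.0 and its size factors, another TMM reference, other filters on low counts, a fit of only the groups compared, a replicate block, the correction, a term for the 3 libraries above 15% not aligned, and leaving out each library. Leaving out those 3 libraries together was added after the data were seen.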

Additional observations from a re-analysis of the deposited data

Results flagged for a closer look

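For 6 of the 30 genes tested, the effect of the resistant line (HCT-8/FU against HCT-8) and the effect of its medium (resistant CM against parental CM) differed in edgeR's quasi-likelihood test of the difference itself. The effect of used medium, parental CM against HCT-8, is part of that difference. The differences in log2 fold change were -1.74 for GDF15, -1.06 for TNFRSF10B, -0.98 for GADD45A, -0.74 for PLK3, -0.60 for CDKN1A and 0.59 for BTG2. For GDF15, TNFRSF10B, GADD45A and CDKN1A the line's effect was past the threshold and that of the medium was not. PLK3 and BTG2 had no call in either comparison, and their effects had opposite signs for PLK3 (-0.49 and 0.25) and for BTG2 (0.12 and -0.47). The difference of BTG2 was no call with DESeq2, with the correction for GC content and length, with a replicate block, or without any 1 library other than parental CM replicate 2, and that of CDKN1A was below the fold threshold with the correction (-0.54). Groups of 2 libraries are too small for a test of single libraries that stand apart.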

How the results depend on the processing

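No called difference of a p53 target changed direction under any alternative. Values that were no call could change sign, such as MDM2 between the media with the correction for GC content and length. Without the fold threshold, 17 genes passed in HCT-8/FU against HCT-8, 9 between the media and 11 in parental CM against HCT-8. The share of all tested genes that pass without it was not computed, so these counts cannot be set against a background. Leaving out 1 library gave 8 to 10, 2 to 5 and 3 to 4 calls in these comparisons and 4 to 7 for the difference. The 5 calls between the media came without parental CM replicate 2, which added TIGAR (higher) and BTG2 (lower). Taking parental CM replicate 2 as the TMM reference gave 3166 higher and 1192 lower calls over all genes in HCT-8/FU against HCT-8, against 2677 and 1648, and the same p53 targets. With a replicate block the calls were 8, 3, 4 and 5, the last without BTG2 (0.57). In that fit 12.7% of all genes were called higher and 7.88% lower in HCT-8/FU against HCT-8, and 7.75% and 1.2% between the media. The shares were 3.7% and 4.15% in parental CM against HCT-8, and 3.41% and 4.09% for the difference. Replicate numbers do not pair the libraries: deviations of same-numbered libraries correlated at -0.123 to 0.132. The correction with the block called the same p53 targets as the correction alone, and POLH (lower) in HCT-8/FU. Low counts limit what can be read from FAS, TIGAR and SPATA18.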
